A study of Mus musculus with 4 samples.

Results

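The 40 genes described here encode the enzymes and transporters that take up glucose, break it down by glycolysis, divert it into the pentose phosphate pathway and store it as glycogen. They were listed by gene name, with earlier results of these data known, so the list is not independent of the values. All 40 were found among the 53465 genes of the count files and passed the filter on low counts. They fall into 3 glucose transporters, 16 glycolytic enzymes, 4 enzymes that make or break fructose 2,6-bisphosphate, 7 enzymes of the pentose phosphate pathway and 10 genes of glycogen metabolism. They were measured by polyA RNA-seq of ventricles from mice at postnatal day 1. Control mice were Ctnnb1 floxP/floxP without the alphaMHC-Cre transgene (2 libraries), and knockout-labelled mice were Ctnnb1 floxP/floxP with alphaMHC-Cre (2 libraries). Both groups carry the floxed alleles of Ctnnb1, the gene of β-catenin, and come from the same cross. The alphaMHC promoter drives Cre in cardiomyocytes, so the other cells of the ventricle are not its target, and the comparison takes in the presence of Cre as well as the deletion. The labels do not say whether the libraries come from separate animals or pools, so p-values measure only the spread between these samples. The series title names energy metabolism as its subject, and the question asked here is which branches of glucose metabolism differ in transcript level between the groups.

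Glycolysis splits glucose into pyruvate in a preparatory phase that spends ATP and a payoff phase that regains it. Glucose 6-phosphate, its first intermediate, is also the entry to the pentose phosphate pathway, which makes NADPH and ribose, and, through glucose 1-phosphate and UDP-glucose, to glycogen. The heart around birth relies on glycolysis and holds large glycogen stores, and it turns to fatty acids in the days that follow. Several steps are served by paired isoforms, one common to most tissues and one typical of muscle.

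The promoters of 4 members are shown first, 3 of genes that lay higher than in the controls and 1 of a gene that lay lower. Pgk1 (phosphoglycerate kinase), Aldoc (aldolase C) and Ugp2 (UDP-glucose pyrophosphorylase) were the members with the smallest adjusted p in edgeR and lay higher in both knockout-labelled libraries. Pfkfb2, which makes and breaks fructose 2,6-bisphosphate, an activator of phosphofructokinase, lay lower in both. The runs below are the 250 bases before and 50 bases after a transcription start in RefSeq on GRCm38.p6, 5′ to 3′ on the gene's strand. Capitals mark ACGTG on either strand, the core letters of the hypoxia response element, and CACGTG, the E-box, which holds ACGTG on both strands. The Pgk1 run lies at chrX:106186850-106187149 on the forward strand. That of Aldoc, 1 of 2 listed for the gene, lies at chr11:78322823-78323122 on the forward strand. That of Ugp2, 1 of 2, lies at chr11:21371218-21371517 on the reverse strand, and that of Pfkfb2, 1 of 3, at chr1:130715772-130716071 on the reverse strand.
Pgk1: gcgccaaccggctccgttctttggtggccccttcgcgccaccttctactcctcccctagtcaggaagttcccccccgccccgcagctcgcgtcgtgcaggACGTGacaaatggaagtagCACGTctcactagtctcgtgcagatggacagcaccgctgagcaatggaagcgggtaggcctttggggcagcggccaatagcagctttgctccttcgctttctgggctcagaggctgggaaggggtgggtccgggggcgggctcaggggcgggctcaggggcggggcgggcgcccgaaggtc
Aldoc: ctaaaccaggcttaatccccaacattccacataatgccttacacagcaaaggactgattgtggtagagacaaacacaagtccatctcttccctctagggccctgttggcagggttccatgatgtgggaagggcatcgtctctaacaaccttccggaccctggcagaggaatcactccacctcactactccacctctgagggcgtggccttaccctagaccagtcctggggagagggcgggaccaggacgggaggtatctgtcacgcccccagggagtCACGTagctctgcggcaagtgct
Ugp2: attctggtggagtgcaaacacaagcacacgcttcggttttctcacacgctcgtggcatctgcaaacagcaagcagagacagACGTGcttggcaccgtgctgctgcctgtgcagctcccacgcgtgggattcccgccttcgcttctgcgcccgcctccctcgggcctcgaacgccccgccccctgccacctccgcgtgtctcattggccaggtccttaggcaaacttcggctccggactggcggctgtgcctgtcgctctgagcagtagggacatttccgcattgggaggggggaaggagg
Pfkfb2: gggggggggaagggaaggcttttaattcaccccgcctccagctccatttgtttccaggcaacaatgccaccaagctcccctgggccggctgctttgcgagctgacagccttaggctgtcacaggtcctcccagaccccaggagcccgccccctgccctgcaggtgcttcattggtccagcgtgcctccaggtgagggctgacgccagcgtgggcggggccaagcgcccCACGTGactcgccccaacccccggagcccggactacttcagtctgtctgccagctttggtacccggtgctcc

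The Pgk1 run held ACGTG 2 times and the runs of Aldoc and Ugp2 1 time each, while the Pfkfb2 run held CACGTG 1 time. RefSeq listed promoters for 38 of the 40 genes, 56 in all, and 22 of the 56 (39.3%) held ACGTG on either strand, against 19.6% of all 32851 promoters of the same length. Counted by gene, 18 of 38 (47.4%) had it in at least 1 promoter, against 21.8% of 27025 genes. CACGTG was in 4 of the 56 (7.14%), against 7.15% of all promoters. GGGCGG, the letters of the GC box, was in 34 of the 56 (60.7%), against 35.7%. The background is every listed promoter of that length and was not matched for base content or for expression. A share above it is therefore not shown to be particular to these genes. A match is a description of the letters and not a site of binding.

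Gene counts per library ran from 34027143 (knockout-labelled library 2) to 45651797 (knockout-labelled library 1). Levels are given as CPM, gene counts relative to a library total scaled by the TMM method of edgeR, always in the order control 1, control 2, knockout-labelled 1, knockout-labelled 2. A log2 fold change compares knockout-labelled with control libraries and carries its standard error (SE) after ±. The targeted gene, Ctnnb1, was at 409, 434, 527 and 460 CPM (log2 fold change 0.23 ± 0.20; edgeR adjusted p = 0.532). A count over the whole gene includes undeleted exons and the RNA of other cells, so it checks no label, and directions here are those of the libraries labelled knockout. Knockout-labelled library 2 stood apart in having 523 CPM of Xist and a count of 0 for the Y-linked Kdm5d, where the other 3 libraries had at most 0.359 and at least 36.3 CPM, both per library total. Control 1 held the thymus gene Trbc2 at 49.8 CPM per library total, against at most 0.874 CPM elsewhere. Reads mapping to several places made up 19.4%, 21.0%, 23.9% and 29.7% of reads in the same order, and mitochondrially encoded genes 5.25%, 7.65%, 10.2% and 14.4% of gene counts. Scaling by library totals alone lowered the median log2 fold change of all genes from -0.02 to -0.26.

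Cardiomyocyte markers were abundant in every library, as the tissue label has it. For the marker counts that follow, 26.5% of all genes tested were higher in both knockout-labelled libraries and 29.7% lower in both. DESeq2 called 5.58% of its genes higher and 4.43% lower, and edgeR had 11.2% lower at an unadjusted p under 0.05. The 6 cardiomyocyte markers summed to 46524, 45455, 61844 and 73823 CPM, with 4 of 6 higher in both knockout-labelled libraries and 2 called by DESeq2 (Actc1 and Myl2). Of 6 erythroid markers, 5 were lower in both and 2 of these (Hba-a2 and Hbb-bs) were called by DESeq2, and they summed to 1086, 1118, 763 and 656 CPM. The 4 proliferation markers, among them Mki67, were all higher in both and called by DESeq2, at summed levels of 125, 184, 306 and 415 CPM. The 5 macrophage markers summed to 111, 90.8, 77.0 and 92.7 CPM, a sum of members that moved apart: 3 of 5 were lower in both, with Cd68 and Csf1r called lower by DESeq2 (log2 fold changes of -1.43 and -0.71 in edgeR), while Mrc1 was called higher (0.96). The 5 fibroblast markers summed to 1712, 2594, 2849 and 2749 CPM, with 2 of 5 higher in both and 0 lower in both. The 5 endothelial ones summed to 1118, 1174, 1067 and 1291 CPM. Of these, 2 were lower in both (Kdr and Tie1) and 0 higher in both, while Emcn was high only in knockout-labelled library 2 (66.2, 80.0, 75.1 and 268 CPM). The smooth muscle and pericyte list, of which 3 of 5 were lower in both and at an unadjusted p under 0.05 in edgeR and 0 were called by DESeq2, summed to 391, 438, 373 and 342 CPM. The skeletal muscle list summed to 1612, 1252, 2104 and 2052 CPM, most of it Ckm, also a heart gene (1581, 1210, 1983 and 1948 CPM). Of its 5 genes tested, 2 were higher in both (Ckm and Acta1) and 0 lower in both. Acta1, at 22.3, 39.2, 117 and 99.2 CPM, was called higher by DESeq2. The brown fat list summed to 66.6, 60.6, 77.0 and 57.6 CPM, and the T cell and thymus list to 187, 3.29, 1.31 and 0.879 CPM. Myh4 of the fast skeletal fibre and Ucp1 of brown fat were too low to test. In such bulk tissue a change in the number of cells of a type and in the RNA per cell cannot be told apart, and the part of these marker shifts in the values that follow was not tested.

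None of the 40 genes passed an adjusted p of 0.05 in edgeR's quasi-likelihood test in either direction, where 0.011% of all 18157 genes tested were called higher and 0% lower. The smallest adjusted p among them, 0.0925, was shared by 616 genes. At an unadjusted p under 0.05, 13 of the 40 were higher, against 11.8% of all genes, and 1 was lower, against 11.2%. DESeq2 called 8 higher, namely Aldoc, Tpi1, Gapdh, Pgk1, Eno1, Pkm, Ugp2 and Gbe1, against 5.58% of its 17034 genes, and 1 lower, Pfkfb2, against 4.43%. All 9 also had an adjusted p under 0.05 in the authors' deposited table, where 5.83% of 16436 genes were higher and 4.62% lower. limma-voom called 0. For 19 of the 40 the lower knockout-labelled library exceeded the higher control, against 26.5% of all genes, and in 3 both lay below, against 29.7%. The median log2 fold change was 0.39, against -0.02 for all genes, and 32 of the 40 were above 0, against 8802 of all 18157 genes.

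The DESeq2 calls depended on the libraries used, among the members as among all genes, of which it called 951 higher and 755 lower with all 4. Without control 1, where it called 104 and 53 of all genes, DESeq2 called none of the same 9, and without control 2 (197 and 324) only Ugp2. Without knockout-labelled library 1 (1369 and 1085) it called 8 of the 9, all but Pfkfb2, within 17 members called higher. Without knockout-labelled library 2 (575 and 583) it called all 9, within 10 called higher. The log2 fold changes of these genes kept their sign: Pgk1 ranged from 1.00 to 1.36, Aldoc from 1.32 to 1.46, Ugp2 from 0.95 to 1.66 and Pfkfb2 from -0.85 to -0.55 over the 4 omissions in edgeR.

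**Figure D1:**
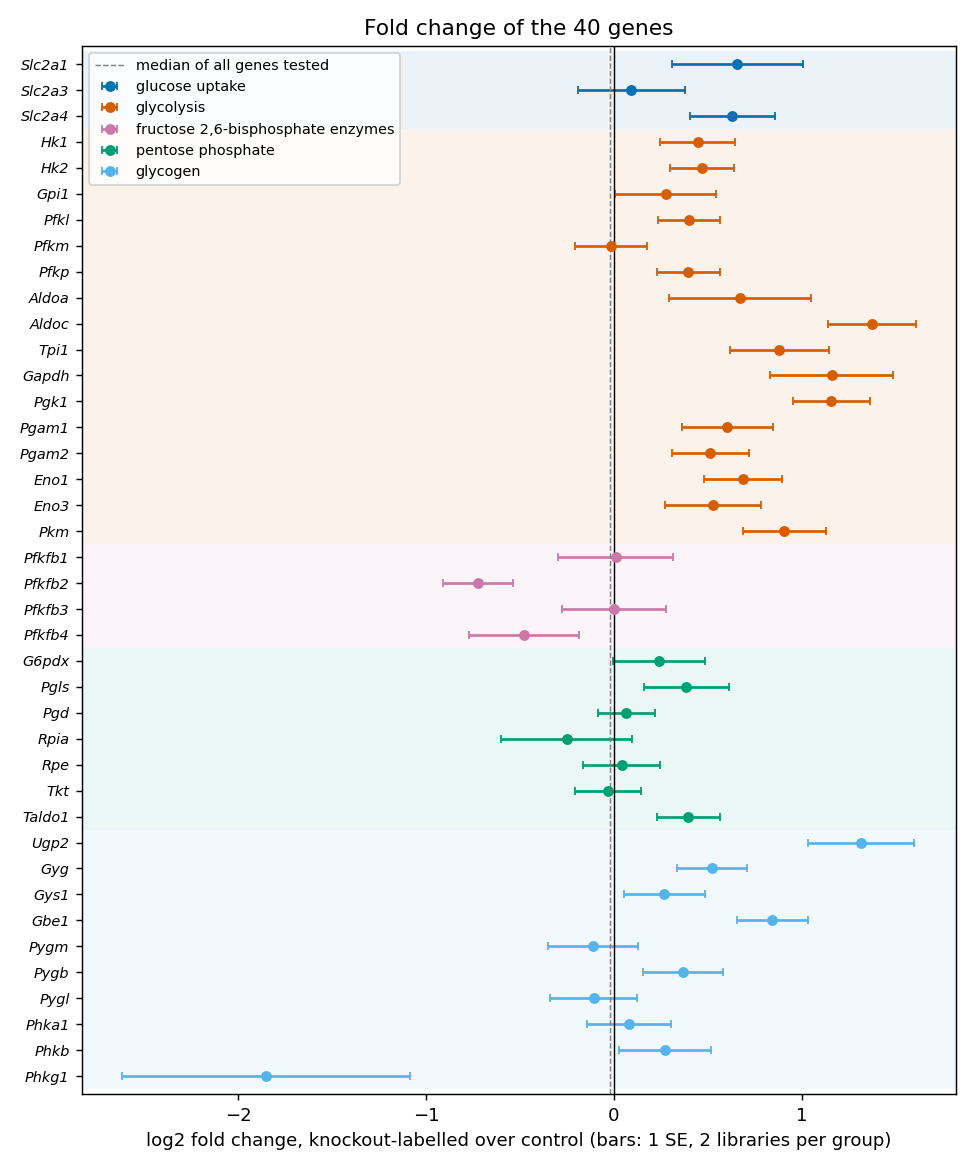
Log2 fold change of each of the 40 genes, knockout-labelled over control, with 1 SE from edgeR (2 libraries per group), coloured by branch. The 7 enzymes of the payoff phase lie between 0.51 and 1.16, the pentose phosphate genes between -0.25 and 0.40, and Pfkfb2 and Pfkfb4 lie below 0.

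The glucose transporters were uneven, with a median log2 fold change of 0.63 and 1 of 3 apart between groups, a share near the 26.5% of all genes. Slc2a4, the insulin-responsive transporter GLUT4 of muscle, was at 78.5, 70.5, 93.1 and 138 CPM. Both knockout-labelled libraries were above both controls, the second well above the first, with a log2 fold change of 0.63 ± 0.23 (adjusted p = 0.177 in edgeR and 0.105 in DESeq2) that was 0.33 without knockout-labelled library 2. Slc2a1, the widely expressed GLUT1, was at 30.8, 23.0, 28.2 and 56.5 CPM. Only knockout-labelled library 2 was high, and the groups overlapped. Slc2a3 (GLUT3) was lowest, between 5.45 and 7.08 CPM, with overlapping groups.

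In the preparatory phase of glycolysis, 6 of 9 genes were higher in both knockout-labelled libraries, where 26.5% of all genes were, at a median log2 fold change of 0.45. Hexokinase traps glucose in the cell by phosphorylating it. Hk2, its insulin-responsive muscle form, was at 57.6, 62.4, 91.1 and 74.8 CPM, with no overlap (log2 fold change 0.47 ± 0.17; edgeR adjusted p = 0.181). Hk1, the more abundant form here, was at 283, 238, 378 and 331 CPM, again with no overlap. Gpi1, which turns glucose 6-phosphate into fructose 6-phosphate, was at 723, 589, 647 and 940 CPM, and its groups overlapped.

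Phosphofructokinase commits the sugar to glycolysis, and its 3 subunit genes did not move alike. Pfkm, the muscle subunit and the most abundant, was at 492, 466, 487 and 460 CPM. These 4 values lay within a narrow range with no order by group, and the log2 fold change was -0.02 ± 0.19. Pfkl, the liver subunit, was at 118, 105, 150 and 145 CPM, and Pfkp, the platelet subunit, at 168, 170, 214 and 231 CPM. Both were above the controls in both knockout-labelled libraries.

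Aldolase cleaves the 6-carbon sugar into 2 trioses. Aldoc, the brain form, was at 5.58, 5.97, 15.7 and 14.1 CPM. Both knockout-labelled libraries were well above the controls, which lay close together, and the log2 fold change was 1.37 ± 0.23 (adjusted p = 0.0925 in edgeR, 2.88e-05 in DESeq2). Aldoa, the muscle form and among the most abundant members, was at 1588, 1252, 1529 and 2991 CPM. Knockout-labelled library 1 lay between the controls and only library 2 was high, so that a log2 fold change of 0.67 ± 0.38 became 0.12 without that library. Tpi1, triose-phosphate isomerase, was at 652, 521, 914 and 1245 CPM. Its groups did not overlap, and the log2 fold change was 0.88 ± 0.26 (adjusted p = 0.138 in edgeR, 0.00907 in DESeq2).

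All 7 genes of the payoff phase were higher in both knockout-labelled libraries, against 26.5% of all genes, at a median log2 fold change of 0.69. DESeq2 called 4 of them higher, against 5.58% of its genes, calls that depended on the libraries used as given above. Gapdh, which oxidises glyceraldehyde 3-phosphate, was at 1482, 1251, 2342 and 3763 CPM. The knockout-labelled libraries were above both controls but far from each other, with a log2 fold change of 1.16 ± 0.33 (adjusted p = 0.129 in edgeR, 0.00175 in DESeq2) that ranged from 0.79 without knockout-labelled library 2 to 1.51 without library 1. Pgk1, which makes the first ATP of the phase, was at 172, 157, 326 and 408 CPM. The 2 groups were clearly apart, and the log2 fold change was 1.16 ± 0.20 (adjusted p = 0.0925 in edgeR, 2.05e-05 in DESeq2).

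Phosphoglycerate mutase and enolase each have a widespread and a muscle form. Pgam2, the muscle mutase, was at 317, 274, 383 and 460 CPM (log2 fold change 0.51 ± 0.21, adjusted p = 0.211 in edgeR), and Pgam1 at 31.6, 32.3, 37.5 and 59.8 CPM (0.60 ± 0.24, adjusted p = 0.214). Neither overlapped between groups, but Pgam1 was only slightly above the controls in knockout-labelled library 1 and its log2 fold change was 0.24 without library 2. Eno1, α-enolase, was at 247, 189, 344 and 356 CPM (0.69 ± 0.21, adjusted p = 0.141 in edgeR, 0.0258 in DESeq2), and Eno3, the muscle enolase, at 884, 831, 1034 and 1436 CPM (0.53 ± 0.26). Pkm, pyruvate kinase, which makes the last ATP, was at 664, 631, 1127 and 1300 CPM. Its knockout-labelled libraries stood well above controls that lay close together, with a log2 fold change of 0.91 ± 0.22 (adjusted p = 0.108 in edgeR, 0.000297 in DESeq2). The counts per gene do not separate its M1 and M2 splice forms.

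Summed over the 7 payoff genes, the level was 3797, 3365, 5594 and 7783 CPM, and over the 9 preparatory genes 4087, 3410, 4426 and 6434 CPM. In the payoff phase both knockout-labelled libraries were far above the controls, whereas in the preparatory phase, where Aldoa takes a large share, knockout-labelled library 1 was only slightly above control 1. Of the 7 payoff genes, Gapdh, Pgk1, Eno1, Pgam1 and Pkm share much of their sequence with processed pseudogenes, as given below, so their counts are uncertain. The other payoff genes, Pgam2 and Eno3, had log2 fold changes of 0.51 and 0.53, close to the preparatory median of 0.45. The difference between the phases was not tested.

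**Figure D2:**
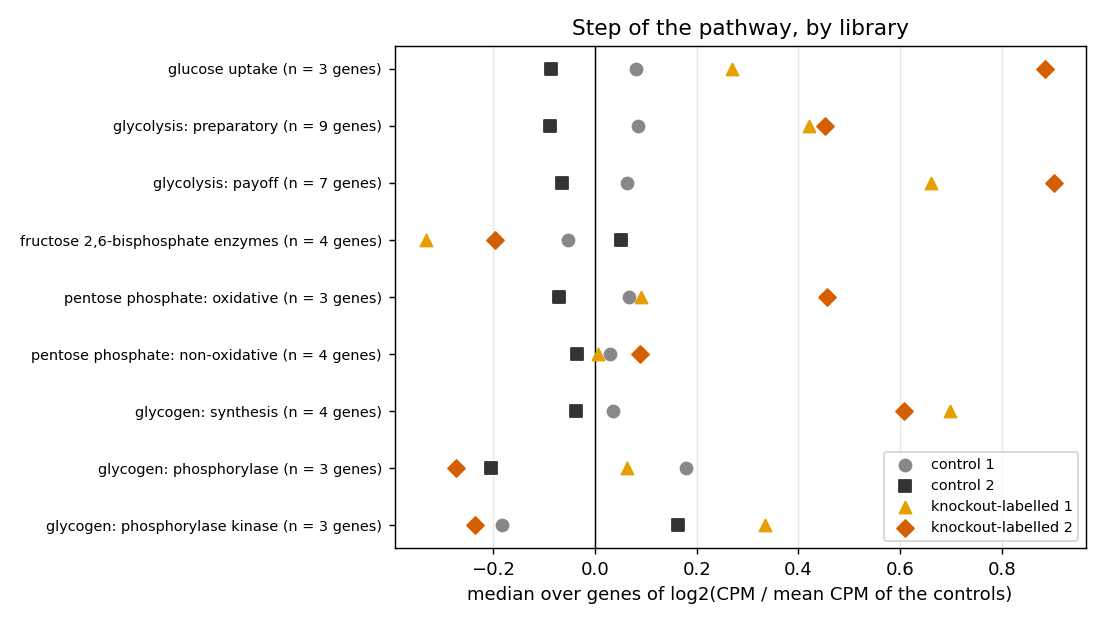
Median over the genes of each step of log2(CPM over the mean CPM of the controls), 1 point per library. In the payoff phase the knockout-labelled libraries are at 0.66 and 0.90 and in glycogen synthesis at 0.70 and 0.61, while in the non-oxidative pentose phosphate pathway they are at 0.01 and 0.09.

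Of the 4 enzymes of fructose 2,6-bisphosphate, 2 were lower in both knockout-labelled libraries, against 29.7% of all genes, and 0 were higher in both. In the other 2 the groups overlapped. Pfkfb2, the heart form, was at 28.2, 30.6, 16.2 and 19.3 CPM. Both knockout-labelled libraries were below both controls, and the log2 fold change was -0.73 ± 0.19 (adjusted p = 0.114 in edgeR, 0.0411 in DESeq2). Pfkfb4 was at 5.73, 6.19, 4.78 and 3.75 CPM, also lower in both. Pfkfb3, the inducible form, was at 12.2, 13.0, 9.92 and 15.4 CPM, with 1 knockout-labelled library below and 1 above the controls, and Pfkfb1, the liver form, stayed between 4.06 and 5.48 CPM. The median log2 fold change of the 4 was -0.24. Of the exonic length of Pfkfb2, 17.4% is shared with another annotated gene on the same strand, as is 20.6% of that of Pgls, 15.3% of Pkm and 10.2% of Pfkm, so the counts of these 4 may take in or lose reads of a neighbour.

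The pentose phosphate pathway showed no common shift, with a median log2 fold change of 0.06 and 1 of 7 genes higher in both knockout-labelled libraries, against 26.5% of all genes. G6pdx, the X-linked gene of the committing and NADPH-yielding step, was at 13.1, 12.1, 12.5 and 17.2 CPM, with knockout-labelled library 1 between the controls. Pgls, the lactonase, was at 74.5, 61.1, 72.6 and 105 CPM, and Pgd, the second source of NADPH, between 60.9 and 68.1 CPM. In all 3 oxidative genes the groups overlapped. In the non-oxidative arm, which returns pentoses to glycolysis, Tkt (transketolase) was at 61.4, 48.0, 53.1 and 53.9 CPM, and the epimerase Rpe between 13.1 and 14.1 CPM. Rpia, the isomerase that makes ribose 5-phosphate, was at 10.5, 11.2, 6.29 and 12.0 CPM, with only knockout-labelled library 1 low. Taldo1 (transaldolase) was the exception, at 103, 88.8, 123 and 130 CPM. Both of its knockout-labelled values were above the controls, with a log2 fold change of 0.40 ± 0.17 (adjusted p = 0.228 in edgeR). Summed, the 7 genes came to 343, 296, 350 and 397 CPM.

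Glycogen genes divided by the direction of the pathway. Of the 4 genes of synthesis 3 were higher in both knockout-labelled libraries, against 26.5% of all genes, at a median log2 fold change of 0.68. Ugp2, which makes the UDP-glucose that glycogen is built from, was at 101, 133, 224 and 356 CPM. The groups were clearly apart though the knockout-labelled libraries differed from each other, and the log2 fold change was 1.31 ± 0.28 (adjusted p = 0.0937 in edgeR, 0.000542 in DESeq2). Gbe1, the branching enzyme, was at 43.2, 40.5, 85.6 and 64.5 CPM (log2 fold change 0.84 ± 0.19; adjusted p = 0.0981 in edgeR, 0.00741 in DESeq2). Gyg, glycogenin, the protein primer of the particle, was at 290, 279, 389 and 429 CPM (log2 fold change 0.52 ± 0.19; adjusted p = 0.174 in edgeR, 0.0522 in DESeq2). Neither gene overlapped between groups. Gys1, the muscle glycogen synthase that elongates the chains, was at 156, 112, 171 and 152 CPM and did overlap.

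Breakdown showed no such shift. Pygm, the muscle phosphorylase, was at 608, 466, 550 and 444 CPM and Pygl, the liver form, at 84.5, 59.6, 75.2 and 58.4 CPM, both with overlapping groups. In each, library 1 of a group was higher than library 2. Pygb, the brain form, was at 527, 485, 716 and 591 CPM, higher in both knockout-labelled libraries (log2 fold change 0.37 ± 0.21, adjusted p = 0.350 in edgeR). Of the phosphorylase kinase subunits, which activate the phosphorylase, Phka1 was at 36.2, 39.1, 47.5 and 32.0 CPM and Phkb at 37.6, 47.8, 61.8 and 41.1 CPM, with overlap. Phkg1, the catalytic subunit of muscle, was at 4.10, 13.8, 3.81 and 1.08 CPM. Its log2 fold change of -1.85 ± 0.77 (adjusted p = 0.220 in edgeR) rested on control 2, without which it was -0.72. Of its 50-base words 25.0% also occur in other annotated genes. Summed, the synthesis genes came to 589, 565, 870 and 1002 CPM and the phosphorylases to 1219, 1011, 1341 and 1094 CPM.

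**Figure D3:**
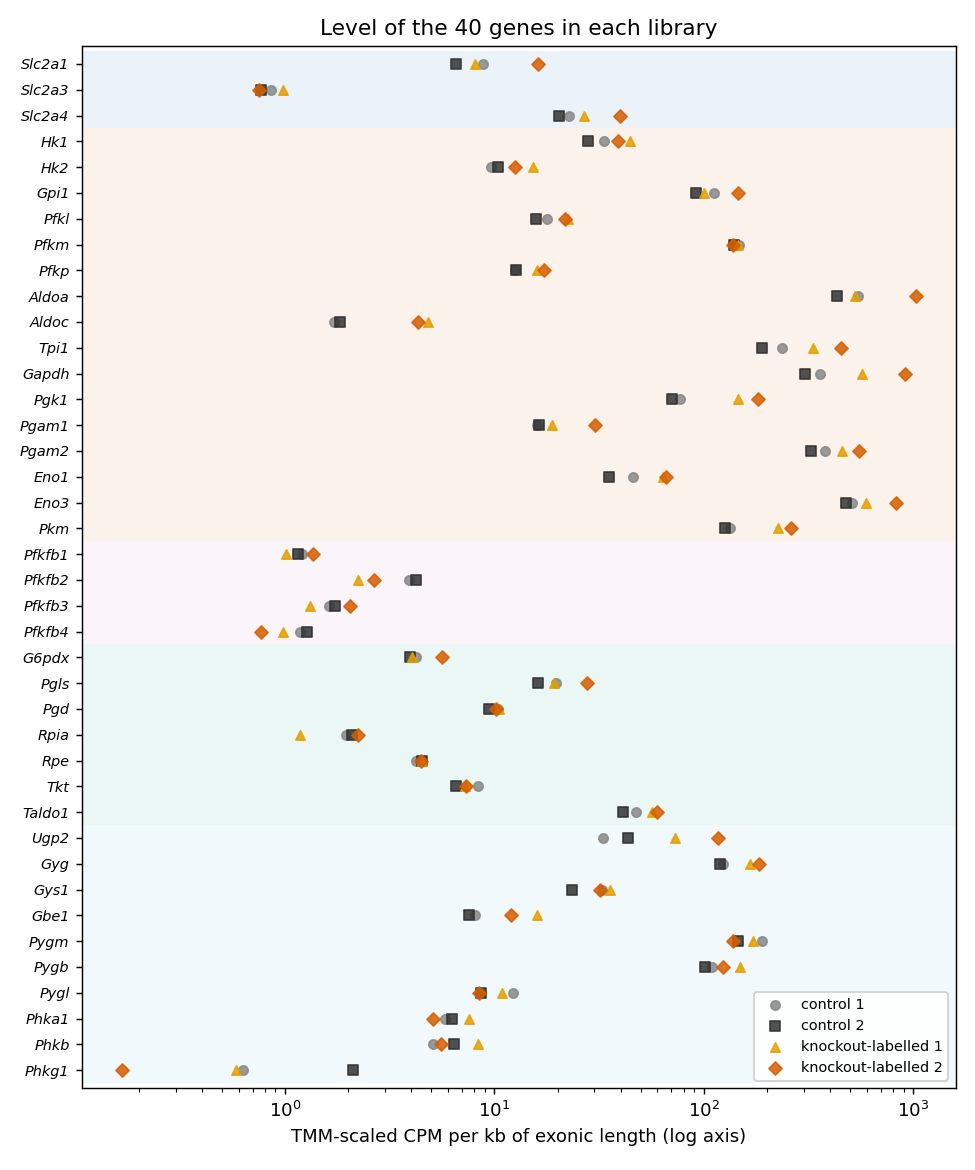
Level of each of the 40 genes in each library as TMM-scaled CPM per kilobase of exonic length (log axis), shaded by branch. The genes span from 0.811 (Slc2a3) to 493 (Eno3) in the mean of the controls, and the payoff genes of the knockout-labelled libraries lie to the right of both controls.

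Levels were also divided by exonic length, the bases covered by any annotated exon of a gene. For some genes this is far longer than the longest coding transcript, as for Gapdh (4133 against 1420 bases), while for Pgam2 both are 840 bases. The order of the genes therefore depends on the length used. By exonic length, the highest control means were those of Eno3 (493 CPM per kb), Aldoa (488), Pgam2 (352), Gapdh (331) and Tpi1 (213). Slc2a3 (0.811 CPM per kb) was the lowest, followed by Pfkfb1 and Pfkfb4 (1.22). Of the first 2 of these, Aldoa overlapped between groups and Eno3 was higher in both knockout-labelled libraries. The muscle form was the most abundant in each of the 7 isoform families except hexokinase, which Hk1 led.

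Isoform shares within a family, in counts per kilobase in each library, do not depend on scaling between libraries. Their size does depend on the exonic lengths used. Pfkm made up 83.0% and 83.1% of the phosphofructokinase genes in the controls, against 79.2% and 77.9% in the other group, while Pfkl was at 9.99% and 9.36% against 12.2% and 12.3% and Pfkp at 7.05% and 7.57% against 8.65% and 9.78%. Pygm made up 60.8% and 56.9% of the phosphorylase genes in the controls, against 51.7% and 51.3%, and Pygb 35.3% and 39.7% against 45.0% and 45.6%. In both families the muscle form held a smaller share in both knockout-labelled libraries. In the others the groups overlapped: Hk2 was between 22.5% and 27.3% of hexokinase, Pgam2 between 94.8% and 96.0% of mutase, Eno3 between 90.3% and 93.2% of enolase, Aldoa between 99.1% and 99.7% of aldolase and Slc2a4 between 70.1% and 74.8% of the transporters. With 2 libraries per group an exact test cannot reach 0.05, so none is given.

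**Figure D4:**
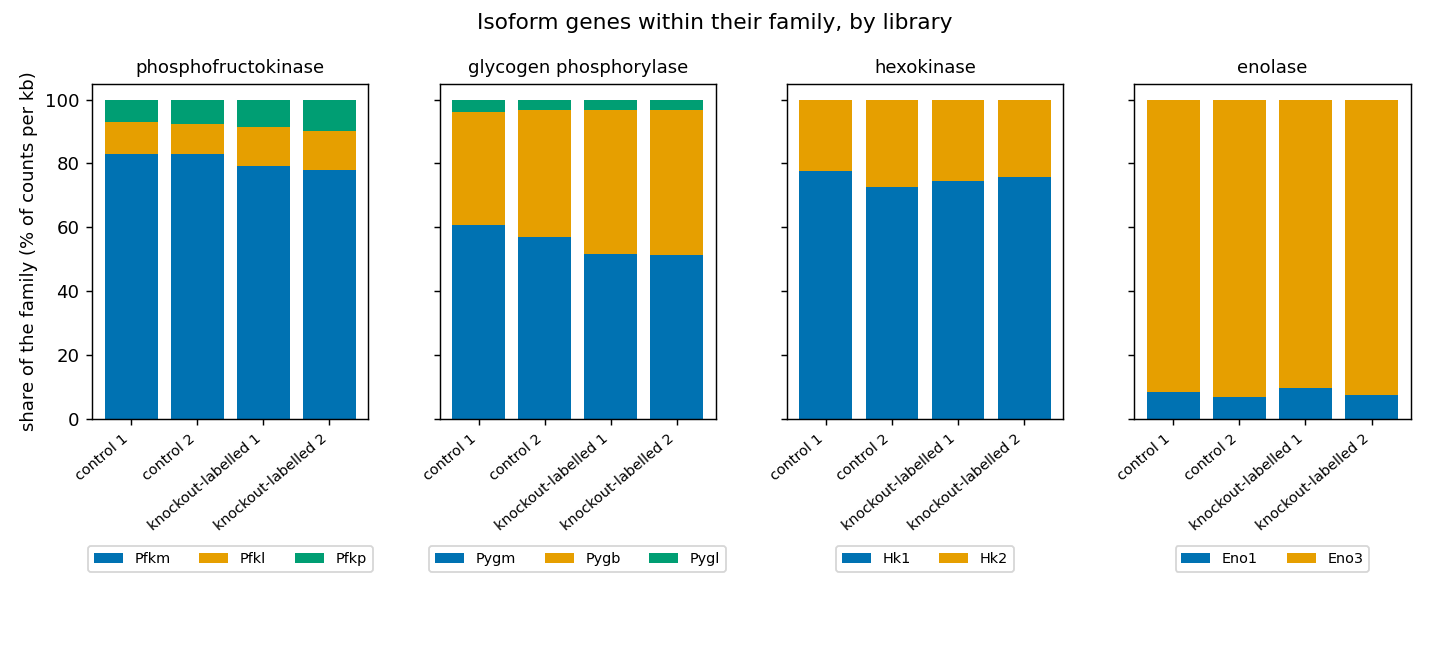
Share of each isoform gene in its family, in percent of counts per kilobase, stacked for the 4 libraries in 4 families. Pfkm is below 80% in both knockout-labelled libraries and not in the controls, Pygm is near 51% against 57% to 61%, and hexokinase and enolase show no order by group.

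Several glycolytic genes share their sequence with processed pseudogenes, which are copies of the mRNA in the genome, so reads can be lost to multiple mapping or assigned to a copy. The share was counted as the percent of 50-base words of the longest coding transcript that occur in annotated pseudogenes. It was 82.5% for Gapdh (203 pseudogenes), 68.0% for Pgk1 (5), 52.8% for Eno1 (8), 41.5% for Pgam1 (4) and 30.5% for Pkm (7), below 20% for 6 others and 0 for 29. Eno1 also shares 70.5% of its words with Eno1b, annotated as protein-coding. The counts of these 5 genes are therefore uncertain. Reads assigned to the 200 of those pseudogenes of Gapdh listed among the counts summed to 64.1, 48.3, 164 and 221 CPM per library total. Reads assigned to 5 of those of Pkm summed to 4.37, 4.44, 14.2 and 14.0 CPM, also per library total. Both sums were higher in the knockout-labelled libraries, as was the share of reads that mapped to several places. The 5 genes had a median log2 fold change of 0.91 and the 29 genes with no shared word one of 0.27. Without the 5, the other 11 glycolytic genes had a median of 0.47, with 8 of 11 higher in both knockout-labelled libraries, against 26.5% of all genes. Aldoc, Ugp2 and Gbe1, called higher by DESeq2, share no word with a pseudogene. The part of sequence sharing in the values of the 5 was not tested.

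**Figure D5:**
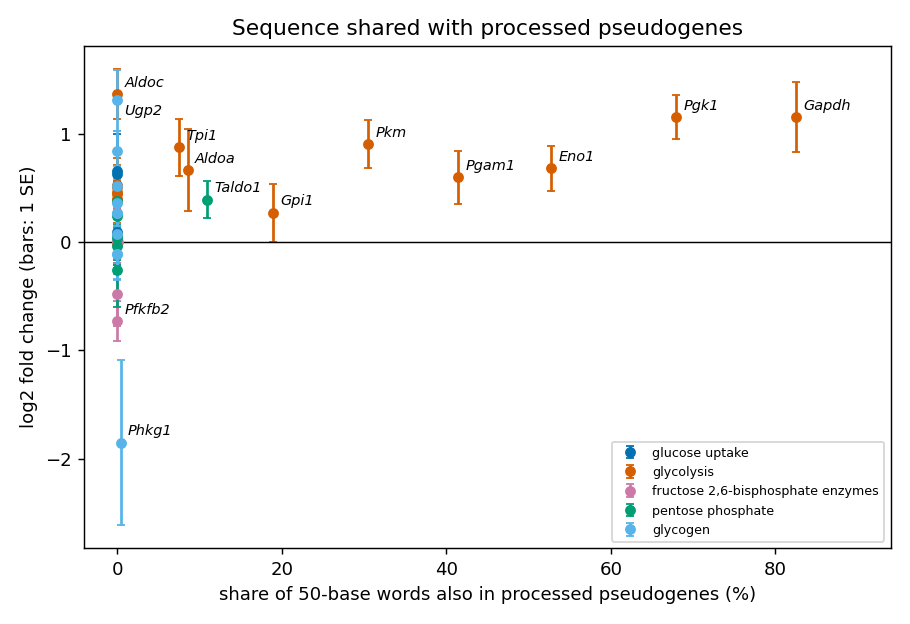
Log2 fold change of the 40 genes (1 SE, edgeR, 2 libraries per group) against the percent of their 50-base words found in annotated processed pseudogenes. The 5 genes at 30% or more all lie above 0.60, while the 29 genes at 0% run from -0.73 to 1.37.

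Of the 40 genes, 4 are X-linked (Pgk1, G6pdx, Phka1 and Pfkfb1), and the library with Xist was knockout-labelled library 2. Without it the log2 fold changes were 1.00 for Pgk1, 0.00 for G6pdx, 0.34 for Phka1 and -0.21 for Pfkfb1, so that of Pgk1 was nearly as large.

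Of 47 further genes of these pathways, listed by function, 41 were tested, and edgeR called 0. At an unadjusted p under 0.05, 6 of the 41 were higher and 6 lower, against 11.8% and 11.2% of all genes, and DESeq2 called 2 each way, against 5.58% and 4.43%. In 11 each way the groups did not overlap, against 26.5% and 29.7%. These counts are near the shares of all genes. Their median log2 fold change was -0.10. Both genes of glucose sensing among the 6 named lay lower: Txnip, a glucose-induced brake on glucose uptake, was at 1421, 1397, 804 and 639 CPM, and Mlxipl, the glucose-responsive factor ChREBP, which activates Txnip, at 16.3, 17.7, 7.80 and 8.32 CPM. Both knockout-labelled values were below both controls in each, with log2 fold changes of -0.97 ± 0.24 (adjusted p = 0.109 in edgeR, 0.00059 in DESeq2) and -1.08 ± 0.22 (0.0925 and 0.00162). Ppp1r3a, which holds protein phosphatase 1 on glycogen in muscle, was at 30.9, 27.1, 65.4 and 51.3 CPM, clearly higher in both (1.01 ± 0.19; 0.0925 in edgeR, 0.000981 in DESeq2). Pgm1, phosphoglucomutase, which links glucose 6-phosphate to glycogen, was at 169, 146, 230 and 298 CPM (0.74 ± 0.21; 0.129 in edgeR, 0.0199 in DESeq2). Tigar, a fructose 2,6-bisphosphatase, was at 32.0, 32.4, 44.5 and 53.3 CPM, and Hk3, the hexokinase of blood cells, at 2.70, 2.82, 1.31 and 0.710 CPM. Tigar was higher (0.60 ± 0.17; 0.126 in edgeR) and Hk3 lower (-1.44 ± 0.42; 0.136 in edgeR) in both knockout-labelled libraries, and neither was called by either tool.

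With scaling by library totals, under which all genes shift, the branch medians less that of all genes were 0.57 for glycolysis, 0.09 for the pentose phosphate pathway, 0.30 for glycogen and -0.22 for the fructose 2,6-bisphosphate enzymes. With TMM these differences were 0.59, 0.09, 0.29 and -0.22. The likeness of the 2 sets of values follows from subtracting a shift that all genes share and is no separate check, and the median of the pentose phosphate genes before that subtraction, -0.17, carries the same shift.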

How the data were processed

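PolyA RNA from ventricles was made into stranded libraries, 2 per group, grouped by genotype labels. The submitters' processing notes name bcl2fastq 2.16.0.10, FastQC 0.11.5, the aligner STAR 2.5.3a, the counter HTSeq 0.6.1 and the build GRCm38. Annotation release and strand setting: not given in the sources used here, so a gene and its antisense partner may share reads. The counts deposited by the authors are unscaled reads per gene. The authors' deposited table adds log2 fold changes and p-values, for which the notes name DESeq2 1.18, and they are quoted only where named. The 4 normalized columns per sample and the 5 HTSeq summary rows were not used.

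Identifiers of 53360 of 53465 genes were matched to GENCODE vM21. Counts were fitted in R 4.3.3 with edgeR 4.0.16 (filterByExpr, TMM, quasi-likelihood test without covariates, Benjamini-Hochberg over all 18157 genes, threshold 0.05). TMM factors were 1.08, 1.10, 0.972 and 0.869. DESeq2 1.42.0 and limma 3.58.1 (voom) were alternatives, beside other scalings, no filter, GC and length trends removed (mgcv 1.9.3), mitochondrially encoded genes left out and single libraries left out. The fit was tested on simulated data. ± is the SE from edgeR. A count of 0 allows up to 0.0882 CPM in the shallowest library. Replicates differed beyond counting error: chi-square over degrees of freedom was 50.2 and 119. Aldoa, a symbol of 2 annotated genes, was taken at its RefSeq position.

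The members and lists were chosen with earlier results of these data known. Fold changes with errors are given for members with an unadjusted p under 0.05, or the smallest in a branch, and for the 6 other pathway genes with the smallest p. Those of Pfkm, Aldoa, Eno3, Pygb and Phkg1 were added, and the 4 promoters chosen, after their values were seen.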

Additional observations from a re-analysis of the deposited data

How the results depend on the processing

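The count of genes called was the least stable result. Where edgeR called 2 higher and 0 lower, DESeq2 called 951 and 755, limma-voom 0 higher, and edgeR without a filter on low counts 313 and 241. Of the members, these called 8 higher and 1 lower (DESeq2) and 3 higher (no filter). The labels do not say that a replicate number marks a shared litter or day, and the correlation of deviations of same-numbered libraries (r = -0.12 across genes), which with 2 libraries per group is 1 contrast, cannot settle whether the numbers pair the samples. With the replicate block, edgeR called 9 genes higher and 9 lower and 0 members. With the pairing crossed, added after seeing the data, it called 501 and 440 genes, and 4 members higher and 1 lower.

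Leaving out 1 library gave 0 to 1369 genes called higher and 0 to 1085 lower, and 0 to 17 members higher and 0 to 1 lower, over edgeR with its filter redone and, added after seeing the data, edgeR with the same 18157 genes and DESeq2. DESeq2 called 104 and 53 genes without control 1, 197 and 324 without control 2, 1369 and 1085 without knockout-labelled library 1 and 575 and 583, with 10 members higher, without knockout-labelled library 2. Without knockout-labelled library 1, edgeR called 9 and 6 genes with the filter redone and 1047 and 640, with 8 members higher, on the same genes. Without control 2 it called 30 genes lower with the filter redone and 33 on the same genes. Members at an unadjusted p under 0.05 ranged from 3 (without control 2) and 5 (without control 1) to 20 higher and from 0 to 2 lower, and members whose groups did not overlap from 21 to 30 higher and 3 to 7 lower. With 3 libraries such groups are more common in all genes too, at 33.6% to 41.0% higher and 37.9% to 43.0% lower. At an unadjusted p, DESeq2 gave 2 members lower, library totals 7 higher and 2 lower, no filter 2 lower and removal of GC and length trends 22 higher. The share of all genes at that p was counted only in the main edgeR fit. Member counts at that p in the other settings and omissions therefore stand without a background and cannot be called many or few. Groups that did not overlap numbered 9 lower with library totals (44.9% of all genes) and 29 higher with those trends removed (32.8%).

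With library totals the medians were 0.14 for all members, 0.31 for glycolysis, -0.48 for the fructose 2,6-bisphosphate enzymes, -0.17 for the pentose phosphate pathway and 0.038 for glycogen, and Ctnnb1 turned to -0.0086. With GC and length trends removed the medians were 0.57, 0.81, -0.085 and 0.28 for the first 4 of these. Leaving out 1 library gave ranges of 0.31 to 0.46 for all members, 0.28 to 0.94 for glucose uptake, 0.49 to 0.78 for glycolysis, -0.32 to -0.14 for the fructose 2,6-bisphosphate enzymes, 0.063 to 0.20 for the pentose phosphate pathway and 0.11 to 0.41 for glycogen. In raw counts the share of Pfkm fell by 6.92 percentage points, where per kilobase it fell by 4.47. The causes were not tested.

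The 15 members and 6 other pathway genes named by their small p were thereby chosen for a clear difference. None of them had an adjusted p under 0.05 in the main edgeR fit. The alternatives planned gave 252 values of their log2 fold change. Of these values, 235 again came with an adjusted p not under 0.05, 17 came with one under it and 0 changed sign. Of the other 25 members, 14 changed sign under at least 1 of the same alternatives, among them Gpi1, Pfkm, Pygm and 5 of the pentose phosphate genes. Replicates differed beyond counting error, so depth alone does not set the precision.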
